A study of Mus musculus with 46 samples.

Results

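The 23 single-cell libraries of the Htr3a line were divided into 2 sides chosen by each cell's own level of Htr3b, with 10 cells at 10 CPM or more and 13 cells below it. CPM is a gene's read count divided by the cell's total count and multiplied by 1000000. The cells were taken from mice aged postnatal day 21 to 30, and the cytosol of each was drawn into a patch pipette. By the labels, every cell was an oriens-lacunosum moleculare (OLM) interneuron that had passed quality control, and the whole series holds 46 cells, 23 from an Htr3a-Cre and 23 from an Sst-Cre driver line. A Cre driver line marks cells in which the promoter of the named gene is or was active, so line membership does not give the gene's present level. Both sides of the comparison share line, age range, labelled cell type and sampling method, and were separated on the measured Htr3b level alone. The labels name no animal and do not say whether cells came from separate animals. Each side was therefore treated as 1 sample, no test was made, and the SDs below are spreads between cells.

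Serotonin receptors of the type 3 class are ion channels that open when serotonin binds, unlike the other serotonin receptors, which act through G proteins. Htr3a encodes the A subunit, which can form a channel on its own, and Htr3b encodes the B subunit, which joins the A subunit in mixed channels. Htr3a is widely used to mark cortical and hippocampal interneurons born in the caudal ganglionic eminence (CGE), whereas most somatostatin interneurons, the class to which OLM cells belong, arise in the medial ganglionic eminence (MGE). OLM cells have their bodies in stratum oriens of the hippocampus and send axons to the outermost dendrites of pyramidal cells.

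The Htr3b level chose the sides, so it is given only as a description. In the 10 Htr3b-positive cells it ran from 11.3 CPM through a median of 106 CPM to 248 CPM. The positive cell nearest the limit, cell 23, held 174 Htr3b reads, and the negative cell nearest it, cell 10, held 27 reads, or 1.45 CPM. The other 12 negative cells had no Htr3b read, and neither did any of the 23 cells of the Sst line. The limit of 10 CPM thus fell in a gap between 1.45 and 11.3 CPM.

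**Figure D1:**
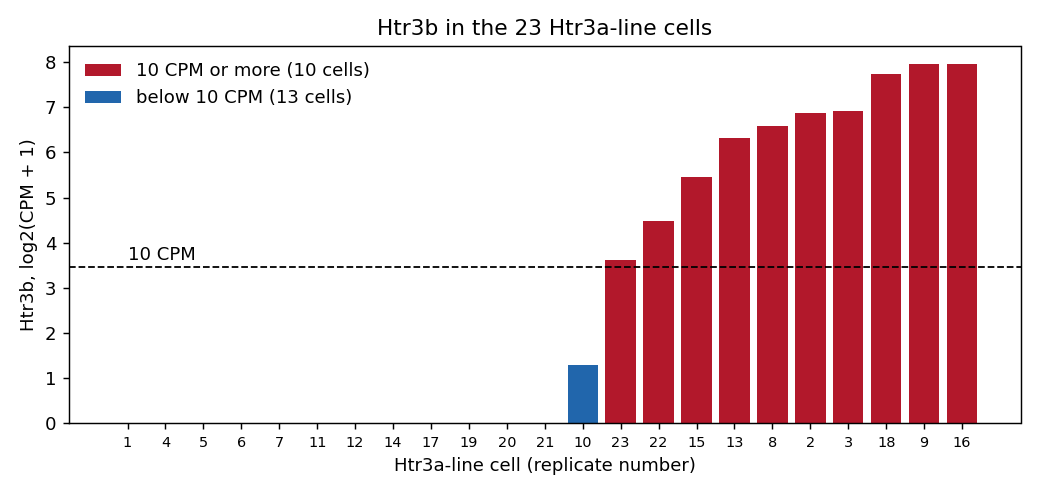
Htr3b as log2(CPM + 1), 1 bar per Htr3a-line cell in order of its level, with cell numbers on the x axis and the limit of 10 CPM dashed. The 10 positive cells (red) lie between 11.3 and 248 CPM, cell 10 is the sole negative cell (blue) with a read, and the 12 other negative cells have no bar.

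The sides were alike in median depth and unlike in spread. Total reads ran from 9690965 to 21757344 in positive cells and from 3391829 to 26136222 in negative cells. Genes with a read numbered 5479, 8007 and 8716 (lowest, median, highest) in positive cells and 3350, 8203 and 12693 in negative cells. Thinned to 3000000 reads each, the cells had medians of 7606 and 7914 genes. Cells 4, 6 and 20, all Htr3b-negative, had fewer than 5000 genes with a read, and all 10 positive cells had more.

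Several other measures of the cells differed with the side. Gad1, which makes the transmitter GABA, lay below 10 CPM in negative cells 4 and 20 and below 200 CPM in negative cells 10 and 11 as well, and at 344 CPM or more in all positive cells. The summed microglial genes had medians of 275 CPM in positive and 941 CPM in negative cells, and passed 1000 CPM in 2 of 10 and 6 of 13 cells. The summed oligodendrocyte genes had medians of 93.0 and 165 CPM, and passed 1000 CPM in no positive cell and in negative cells 4, 7 and 21. Y-linked genes, which only male animals carry, summed to at least 1 CPM in 2 of 10 positive and 7 of 13 negative cells. Cell 10 also held 12083 CPM of blood genes, against at most 150 CPM in any other cell. The part of these measures in the differences below was not tested beyond the comparisons of subsets of cells given with them.

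**Figure D2:**
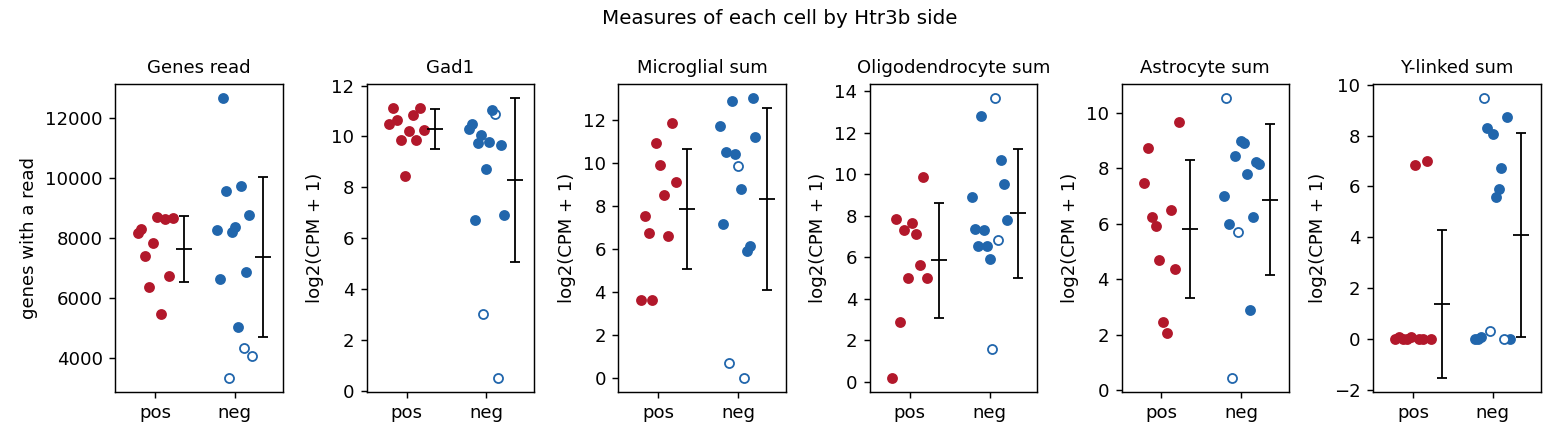
Measures of each cell in the 10 Htr3b-positive (red) and 13 Htr3b-negative (blue) cells, as genes with a read or as log2(CPM + 1) of Gad1 and of summed marker lists. Bars are mean ± SD and open circles are cells 4, 6 and 20, with fewer than 5000 genes read. Low Gad1 and oligodendrocyte sums over 1000 CPM occur among the negative cells, and Y-linked sums of 1 CPM or more in 7 of 13 of them.

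For each gene, the difference is the mean log2(CPM + 1) over positive cells minus that over negative cells. A gene was called higher or lower when this difference was at least 2 in size and the log2 ratio of mean CPM + 1 had the same sign and a size of at least 1. Of 9575 genes other than Htr3b with a read in at least 8 of the 23 cells, 490 (5.12%) were called higher in positive cells and 159 (1.66%) lower. The median difference over these genes was 0.45, with quartiles of -0.30 and 1.23, and 65.5% of differences lay above 0. Calls were thus 75.5% higher ones, or 88.0% with 10 in place of 1 added to CPM.

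This balance changed when cells 4, 6 and 20 were left out. Over the remaining 10 positive and 10 negative cells the median difference was 0.0085, 50.3% of differences lay above 0, and 242 genes were called higher and 341 lower. Of the 490 genes first called higher, 173 were called so again, as were 131 of the 159 first called lower. Differences over these 20 cells, each with at least 5000 genes read, are given beside the main ones below as differences "in gene-rich cells". The sides overlapped in nearly every gene. CPM did not overlap for 1 of the 9575 genes (0.0104%), the predicted gene Gm14412, singled out after its values were seen. It ran from 0.196 to 1.87 CPM in positive cells and reached 0.141 CPM in negative cells, a difference of 0.45.

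**Figure D3:**
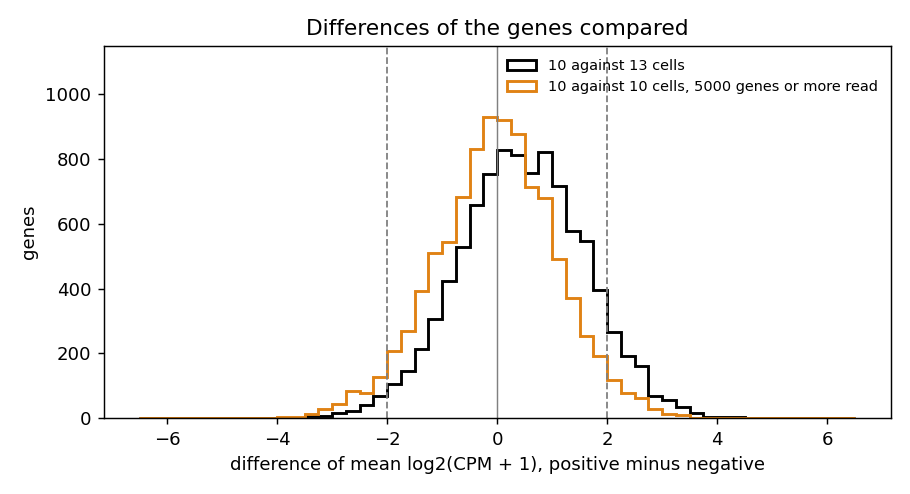
Number of genes (y axis) by difference of mean log2(CPM + 1), positive minus negative (x axis), for the 9575 genes compared. The black outline holds 10 against 13 cells and the orange outline 10 against 10 cells with at least 5000 genes read; the median moves from 0.45 to 0.0085, and dashed lines mark differences of 2.

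Transcription factors and other genes of MGE-derived interneurons came first. Of 9 listed genes 7 could be compared, none was called, and their median difference was 0.58, or 0.02 in gene-rich cells, beside 0.45 and 0.0085 over all genes. The 7 genes compared were each read in at least 8 positive and 10 negative cells, so neither side lacked them.

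Lhx6, the factor that carries the MGE programme into migrating and mature interneurons (chromosome 2, 36081953 to 36105408, GRCm38), was read in all 10 positive cells, at 70.1, 164 and 403 CPM (lowest, median, highest). In negative cells it ran from 0 through 58.8 to 313 CPM and was read in 11 of 13, with none in cells 20 and 21. The mean was 7.42 ± 0.88 (SD, n = 10) against 5.47 ± 2.68 (SD, n = 13) on the log2(CPM + 1) scale, a difference of 1.95, just under the size for a call. The sides overlapped, and the spread was wider among the negative cells. The difference stayed between 1.5 and 2.19 with each cell left out in turn and was 1.89 in gene-rich cells. With any of 9 single cells left out, Lhx6 met the call rule.

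Other genes of the MGE list showed no common direction. Maf, a transcription factor of MGE-derived interneurons, differed by 0.18, a sign that turned with 10 added to CPM and with DESeq2 scaling. Sox6, which acts downstream of Lhx6, had the lower mean in positive cells, with a median of 3.93 against 19.8 CPM. It was read in 8 of 10 and 11 of 13 cells. Its difference was -1.01, or -1.32 in gene-rich cells, but 0.20 in cells under 1 CPM of Y-linked genes. Satb1, a chromatin organiser needed for somatostatin interneurons, had medians of 251 and 267 CPM and a difference of 0.58 (0.01 in gene-rich cells). Nxph1, a secreted neurexin ligand, had medians of 724 and 508 CPM and a difference of 1.45. Tox2 had a difference of -0.82, or -1.39 in gene-rich cells, but 0.52 in cells under 1 CPM of Y-linked genes. Nkx2-1 and Lhx8, factors of the embryonic MGE, were each read in 1 negative cell and in 0 of 10 positive cells, a count of 0 for which the floor of 3 cells is 30%.

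Of the 9 CGE-linked genes 5 could be compared. None was called, and the median difference was 0.50 (0.49 in gene-rich cells). The nuclear receptors Nr2f1 and Nr2f2, often called COUP-TF factors and enriched in CGE-derived interneurons, were each read in some cells of both sides and missing from others.

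Nr2f1 was read in 7 of 10 positive cells, at a median of 29.6 CPM and up to 76.5 CPM, and in 7 of 13 negative cells, at a median of 0.0703 CPM and up to 333 CPM. Its difference was 1.54, or 1.74 in gene-rich cells. The log2 ratio of mean CPM was -0.66, since negative cells 6 and 10, at 296 and 333 CPM, exceeded every positive cell. Nr2f2 was read in 7 of 10 and 9 of 13 cells, with medians of 41.3 and 2.39 CPM and highest values of 95.4 and 522 CPM. Its difference of 0.50 came with SDs of 3.08 and 3.35, so it was small against the spread between cells. It was 0.49 in gene-rich cells, but -0.47 in cells under 1 CPM of Y-linked genes.

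Sp9, a zinc-finger factor of developing striatal and cortical interneurons whose exons overlap those of Cir1, was read in all 10 positive cells and in 10 of 13 negative cells. It ran from 10.5 through 58.0 to 157 CPM in positive cells and from 0 through 19.2 to 328 CPM in negative cells, a difference of 1.74 (2.08 in gene-rich cells, where it was called). Npas1 and Npas3, paired factors of interneuron development, differed by -0.14 and -0.34, and Npas1 turned sign with 10 added to CPM. For Npas1 and Npas3 the differences were -0.93 and -1.24 in gene-rich cells, but 2.29 and 1.6 in cells under 1 CPM of Y-linked genes. The remaining CGE genes were almost absent. Prox1, needed for the maturation of CGE-derived interneurons, and Sp8 were read in 1 negative cell each, cell 10, at 53 and 3.87 CPM, and in no positive cell. Adarb2 was read in 1 of 10 positive cells, at 2.06 CPM, and in 3 of 13 negative cells, with 627 CPM in cell 4 and 1.12 CPM or less in the others. Htr3b-positive cells were thus not set apart by reads of Prox1, Sp8, Adarb2 or Cxcl14, of which the last was read in 0 of 10 and 2 of 13 cells.

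**Figure D4:**
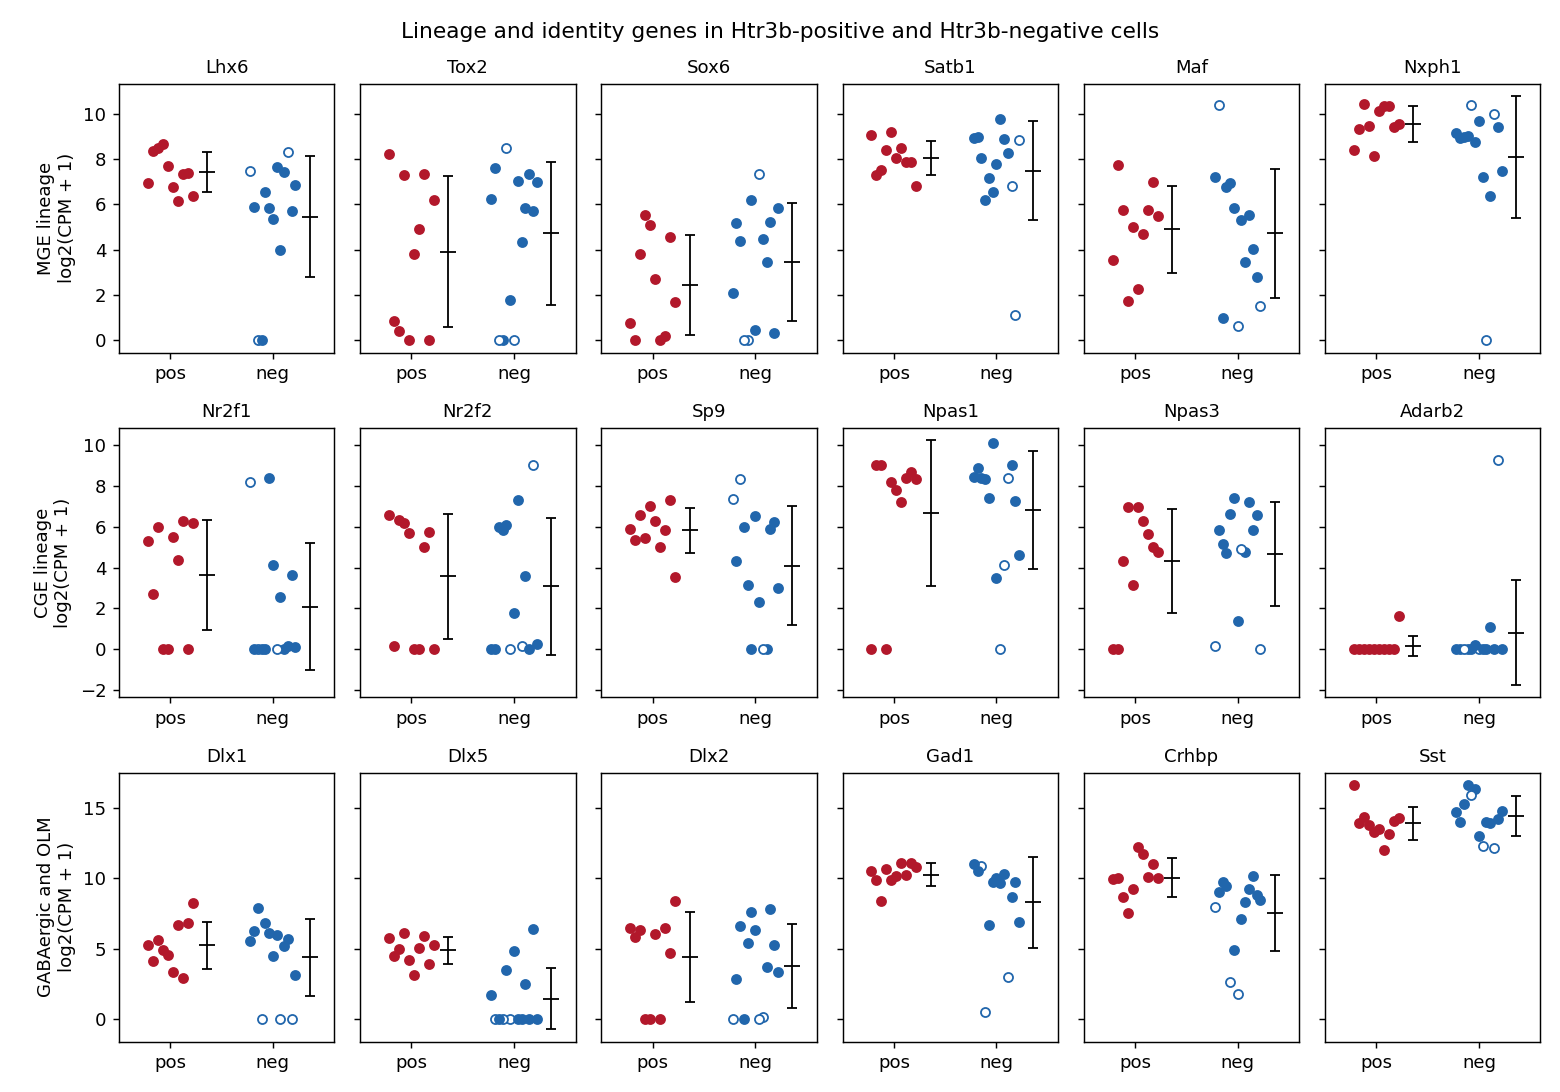
Log2(CPM + 1) of 18 lineage and identity genes in each Htr3b-positive (red, n = 10) and Htr3b-negative (blue, n = 13) cell, with mean ± SD; open circles are cells with fewer than 5000 genes read. Lhx6 is read in all 10 positive cells and 11 of 13 negative cells, Dlx5 in 10 and 5, and Adarb2 in 1 and 3.

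All 9 genes of GABAergic identity could be compared, with a median difference of 1.40 (0.83 in gene-rich cells). One of them, the homeobox factor Dlx5, was called higher. Dlx factors drive the production and maturation of GABAergic neurons in both ganglionic eminences, so they do not separate MGE from CGE origin.

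Dlx5 (chromosome 6, 6877805 to 6882085) ran from 7.72 through 31.1 to 68.5 CPM in positive cells. Of the negative cells 8 had no read, and the other 5 were cells 7, 10, 17, 14 and 11, at 82.0, 28.1, 10.2, 4.67 and 2.30 CPM. The sides overlapped through cells 7, 10 and 17, which reached the lowest positive cell. The share of cells with a read was 100% (Clopper-Pearson 95% interval 69.2 to 100) against 38.5% (13.9 to 68.4). These intervals take cells as independent draws, which the labels do not establish, and are no test between the sides. The mean was 4.88 ± 0.95 against 1.46 ± 2.20, a difference of 3.42 that stayed between 3.28 and 3.83 with each cell left out. It was 2.98 in gene-rich cells, 3.50 without cells under 200 CPM of Gad1 and 3.47 in the 14 cells under 1 CPM of Y-linked genes, and the call was lost only with 10 added to CPM, where the difference was 1.45.

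The other Dlx genes differed less. Dlx1 and Dlx2 had differences of 0.85 and 0.65, both -0.47 in gene-rich cells, and Dlx6, which lies beside Dlx5 in the genome, was read in 5 of 10 and 3 of 13 cells with a difference of 0.74.

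Genes of GABA handling were also compared without the 4 cells under 200 CPM of Gad1, all of them negative. Those cells were chosen by Gad1 itself, so a smaller Gad1 difference without them was fixed in advance. Gad1 ran from 344 through 1331 to 2217 CPM in positive cells and from 0.446 through 861 to 2097 CPM in negative cells, a difference of 1.99 that was 0.94 in gene-rich cells and 0.21 without the 4 cells under 200 CPM. Gad2, the second enzyme of GABA synthesis, differed by 1.40, or 0.31 without those 4 cells. Slc32a1, which loads GABA into vesicles, differed by -1.26, or -0.59 without them. Slc32a1 shared 24.2% of its 31-base words with other genes, so its reads are uncertain.

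The defining OLM peptide was abundant on both sides. Sst, the neuropeptide that defines the class, was read in all 23 cells, at 4231 CPM or more, and its difference was -0.49 with medians of 15009 and 19047 CPM. Over the 8 OLM genes the median difference was 0.10, -0.51 in gene-rich cells, and its sign also turned with other scalings (range -0.07 to 0.07).

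Crhbp, a secreted protein that binds corticotropin-releasing hormone and marks OLM cells, was the OLM gene called higher. It ran from 183 through 1038 to 4795 CPM in positive cells and from 2.45 through 360 to 1182 CPM in negative cells. The sides overlapped widely, and positive cells 9, 15 and 3 exceeded every negative cell. The mean of 10.06 ± 1.39 against 7.53 ± 2.71 gave a difference of 2.53, which fell short of a call in gene-rich cells (1.52) and without cells under 200 CPM of Gad1 (1.48).

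Npy, a neuropeptide of several interneuron classes, was read in 9 of 10 positive and 12 of 13 negative cells, at medians of 55.3 and 143 CPM. Its difference of -1.36 came with SDs of 4.48 and 4.42 and was -3.43 without cells under 200 CPM of Gad1, but 0.75 with the Htr3b limit at 50 CPM. Chrna2, the nicotinic receptor subunit used to mark OLM cells, was read in 3 of 10 and 7 of 13 cells, at highest values of 213 and 99.9 CPM. Reln, Pnoc and Elfn1 differed by 0.64, 0.53 and 0.08, or by -0.23, 1.23 and -0.83 in gene-rich cells, and the sign for Elfn1 also turned with 10 added to CPM and after thinning.

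Markers of other interneuron classes were mostly sparse on both sides. Of 20 listed genes 17 had a read in some cell, and 5 had reads in the 8 cells needed for comparison. None of the 5 was called and their median difference was -0.02, a sign that turned with scaling. Lamp5, Tacr1 and Pthlh had no read in any of the 23 cells.

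The peptide Vip, which marks a CGE-derived class, was read in 1 negative cell, cell 10, at 2.10 CPM, and in no positive cell. Cck, the peptide of a CGE-derived class of basket cells that carries type 3 serotonin receptors, was read in 1 of 10 positive cells, at 23.1 CPM, and in 3 of 13 negative cells. Cnr1, the cannabinoid receptor abundant in those basket cells, was read in 9 of 10 and 13 of 13 cells, at medians of 98.8 and 81.5 CPM, a difference of 0.57. Sncg, another gene of that class, was read in no positive cell and in negative cells 12, 10 and 21, at 1173, 349 and 133 CPM.

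Neurogliaform and calcium-binding markers were spread over both sides. Ndnf, a secreted factor of neurogliaform cells, was read in 8 of 10 and 10 of 13 cells and differed by 1.43, or 0.29 in gene-rich cells. Id2 differed by -0.97, or -2.11 in gene-rich cells, where it was called lower, but 0.78 without cells over 1000 CPM of microglial genes and 0.51 in cells under 1 CPM of Y-linked genes. Calb1, which buffers calcium, was read in 7 of 10 and 11 of 13 cells at medians of 173 and 222 CPM. Its difference was -0.35, or -1.09 in gene-rich cells, but 0.25 with the Htr3b limit at 50 CPM. Calb2 was read in 3 of 10 and 4 of 13 cells, and Pvalb, of fast-spiking interneurons, in 3 of 10 and 3 of 13.

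Peptides of small subsets of interneurons were read in few cells, and only Cort in enough for comparison. Cort, the peptide cortistatin, was read in 4 of 10 and 5 of 13 cells and differed by -0.02, or -0.39 in gene-rich cells. Trh was read in 0 of 10 and 2 of 13 cells, and Tac1 in 1 of 10 and 1 of 13. Penk, the enkephalin precursor, was read in positive cells 3, 18 and 2, at 477, 57.8 and 27.2 CPM, and in 1 negative cell at 0.446 CPM. Crh, the hormone that Crhbp binds, was read in 4 of 10 positive cells, of which cells 15, 23 and 22 had 220, 99.3 and 60.4 CPM, and in 2 of 13 negative cells at 34.9 CPM or less. No peptide of this list was read in more than 4 of the 10 positive cells.

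Of the other serotonin receptors 3 could be compared. Htr1a, Htr1f and Htr2a differed by 0.75, -0.76 and -0.77, and none was called. Htr3a, the partner subunit that gives the driver line its name, was read in 3 of 10 positive cells and 2 of 13 negative cells. Positive cells 2 and 18 held 532 and 81.5 CPM and negative cell 19 held 63.2 CPM, and the other cells with a read, 8 and 10, lay below 1 CPM. Thus 7 of the 10 cells chosen for Htr3b had no read of Htr3a. Htr1f was read in 2 of 10 and 6 of 13 cells, Htr5a in 2 positive cells alone, and Htr6 in 1 negative cell alone.

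Among the 490 genes called higher, the 12 with the largest differences, leaving out 1 RIKEN clone name, 1700123O20Rik (4.13), ranged from 3.74 to 5.21, and from 2.80 to 4.80 in gene-rich cells. They were picked for their size, so the values describe them and no more. Of these 12 genes 9 were read in all 10 positive cells, and 8 kept their call under all 16 alternatives other than leaving out single cells.

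Gna12, a G-protein alpha subunit that signals to the cytoskeleton (chromosome 5, 140758408 to 140830431, sharing exon sequence with Amz1), had the largest difference. It ran from 62.2 through 80.4 to 225 CPM in positive cells. In negative cells it was read in 4 of 13, at 137 CPM in cell 1 and 16.9, 9.13 and 8.55 CPM in cells 14, 11 and 10. Apart from cell 1, every negative cell lay below every positive cell. The mean was 6.59 ± 0.66 against 1.37 ± 2.33, a difference of 5.21, and 4.80 in gene-rich cells.

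Ehd3, which takes part in endosomal recycling, ran from 51.5 through 111 to 258 CPM in positive cells and was read in 6 of 13 negative cells. Negative cell 1 held 294 CPM and the next, cell 11, held 34.3 CPM, so again cell 1 alone overlapped the positive cells. Its difference was 4.83, or 4.35 in gene-rich cells. Necab1, a neuronal calcium-binding protein, was read in 8 of 10 positive cells, up to 448 CPM, and in 3 of 13 negative cells, up to 31.8 CPM, a difference of 4.40.

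The rest of the 12 were of mixed function. Fam84a, Kbtbd2 (an adaptor of ubiquitin ligases), Ccdc126 and Dfna5 (a gasdermin) differed by 4.40, 4.33, 4.06 and 4.05. Nefl, the light neurofilament chain, differed by 3.99 with medians of 143 and 0.765 CPM, and shared 32.2% of its 31-base words with other genes. Api5 (an inhibitor of apoptosis), Max (the partner of Myc), Sqle (an enzyme of sterol synthesis) and Vps11 (a part of endosomal tethering complexes) differed by 3.93, 3.90, 3.79 and 3.74. Vps11 lost its call in gene-rich cells, where its difference was 2.80.

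Among the 159 genes called lower, the 12 with the largest differences ranged from -4.02 to -3.21. All 12 stayed beyond 2 in size in gene-rich cells, from -5.35 to -3.01, and 3 kept their call under all 16 alternatives. The 3 were Tatdn3, Mbp and Ryr2.

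Tenm1, an X-linked teneurin that spans synapses (chromosome X, 42527866 to 43429126, with exons overlapping those of Sh2d1a), was read in 1 positive cell, cell 15, at 27.0 CPM. It was read in 10 of 13 negative cells, at a median of 47.8 CPM and up to 151 CPM, and the 3 negative cells without a read were cells 4, 6 and 20. All 10 gene-rich negative cells thus held Tenm1 and 9 of the 10 positive cells did not. The difference was -4.01, and -5.35 in gene-rich cells. In the 14 cells under 1 CPM of Y-linked genes it was -3.58.

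Kcnd2, which encodes the potassium channel Kv4.2 of the fast A-type current (chromosome 6, 21215503 to 21729805), was likewise read in positive cell 15 alone, at 31.7 CPM. It was read in 10 of 13 negative cells, at a median of 7.69 CPM and up to 673 CPM in cell 4. The difference was -3.48, and -3.63 in gene-rich cells, but -1.36 and no longer a call in the 14 cells under 1 CPM of Y-linked genes. Nup160, a nuclear pore component, was read in no positive cell and in 8 of 13 negative cells, a difference of -3.33. Without cells over 1000 CPM of microglial genes it was -1.80 and no longer a call.

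The rest of the 12 lowest were of mixed function. Ryr2, a calcium release channel of internal stores, had medians of 2.0 and 57.4 CPM and a difference of -3.29. Mef2c, an activity-regulated transcription factor, was read in 4 of 10 and 12 of 13 cells and differed by -3.21. Nfkbia, the inhibitor of NF-kappaB, differed by -3.48, and the call was lost without cells over 1000 CPM of microglial genes. Scpep1, Tatdn3 and Vps13a differed by -3.41, -3.40 and -3.36, and Brms1, by -3.69, is uncertain since 76.3% of its 31-base words occur in other genes.

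Apoe and Mbp, both among the lowest, are abundant in glia. Apoe, the lipid carrier of astrocytes and microglia, had medians of 0.0460 and 182 CPM, with the highest value, 3896 CPM, in negative cell 20. Its difference was -4.02, and its call was lost without cells under 200 CPM of Gad1 (-2.78). Mbp, a myelin protein, had medians of 17.4 and 120 CPM and a difference of -3.37, -3.99 in gene-rich cells.

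Of the receptors and channels, GABA receptor subunits lay on 1 side of 0. All 11 genes compared had a difference above 0, under each of the 5 other scalings too, with a median of 1.32, and 3 were called higher. Over all genes 65.5% lay above 0 and 5.12% were called higher. In gene-rich cells 9 of 11 lay above 0, beside 50.3% of all genes, and the median was 0.75. Gabrg1, a gamma subunit, was read in 6 of 10 and 5 of 13 cells and differed by 3.04 (2.77 in gene-rich cells, still called). Gabra4, an alpha subunit, differed by 2.11, and its call was lost in gene-rich cells (1.72).

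Potassium channel genes went both ways, with 12 of 20 above 0, beside 65.5% of all genes, and a median of 0.21. In gene-rich cells 6 of 20 lay above 0, beside 50.3% of all genes, with a median of -0.20. Kcnh2, which encodes a channel of the ERG family, ran from 8.45 through 26.4 to 204 CPM in positive cells and was read in 6 of 13 negative cells, up to 93.2 CPM. Its difference of 3.22 (2.62 in gene-rich cells) stood against that of Kcnd2 given above.

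Voltage-gated calcium channel genes leaned the other way, with 7 of 11 below 0 and 4 above, beside 65.5% of all genes above 0. Their median was -0.66, or -1.36 in gene-rich cells and -0.31 in cells under 1 CPM of Y-linked genes. The auxiliary subunit Cacnb4 was the exception called higher, by 2.98, with medians of 209 and 9.14 CPM, and its call was lost in gene-rich cells (1.88). The pore subunits Cacna1a, of P/Q-type channels, and Cacna1g, of T-type channels, differed by -1.96 and -1.83, and by -2.98 and -2.52 in gene-rich cells. Without cells over 1000 CPM of microglial genes these were -1.03 and -0.65, and in the 14 cells under 1 CPM of Y-linked genes -0.12 and -1.48. HCN channels, which carry the current that gives OLM cells their pronounced sag, had a median of 1.43 over 3 genes, 0.43 in gene-rich cells, and none was called.

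Ionotropic glutamate and acetylcholine receptor genes, with 14 and 6 compared, gave 1 call between them. Over all genes 5.12% were called higher and 1.66% lower. Of 14 ionotropic glutamate receptor genes none was called and the median was 0.10, -0.24 in gene-rich cells. Grin2b, a subunit of NMDA receptors, was read in all 23 cells and differed by -1.38, with medians of 55.6 and 136 CPM. Tmem35a, a chaperone of nicotinic receptors listed in the table as Tmem35, was called higher by 2.16, a call lost with any of 10 single cells left out. Chrna7, which that chaperone helps to the membrane, differed by 1.82, or 0.84 in gene-rich cells.

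Genes of peptide storage and release included 3 called higher of 11, beside 5.12% of all genes, and all 3 calls were lost in gene-rich cells. Scg3 and Scg2, granins of dense-core vesicles, differed by 2.69 and 2.30, and Pcsk1, a convertase that cuts propeptides, by 2.56. In gene-rich cells these were 1.68, 1.42 and 1.77. The Scg3 call was also lost with any of 11 single cells left out, the Pcsk1 call without cell 9 and the Scg2 call without cell 20. Of 18 vesicle release genes 14 lay above 0, beside 65.5% of all genes, with a median of 0.82 (0.55 in gene-rich cells) and no call.

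Activity and stress genes did not share a direction. Of 11 immediate early genes Fosb alone was called, with a difference of -2.40 and medians of 16.7 and 51.9 CPM. Its call was lost without cells over 1000 CPM of microglial genes (-1.11), with 10 added to CPM, with DESeq2 scaling and by medians. Arc and Npas4 differed by 1.56 and 1.26. The list's median of 0.51 was -0.13 in gene-rich cells. The 10 stress genes had a median of 0.26 (-0.56 in gene-rich cells), and the 13 mitochondrially encoded genes one of -0.29. Sodium channels, neurexins with their partners, metabotropic glutamate receptors and other amine and peptide receptors gave no call, with medians of 0.44, 0.48, -0.32 and -0.30, or -0.20, -0.02, -0.84 and -0.85 in gene-rich cells. The pyramidal cell list, of excitatory neurons, had a median of -0.91 over 3 genes and summed to medians of 54.2 and 46.4 CPM per cell.

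**Figure D5:**
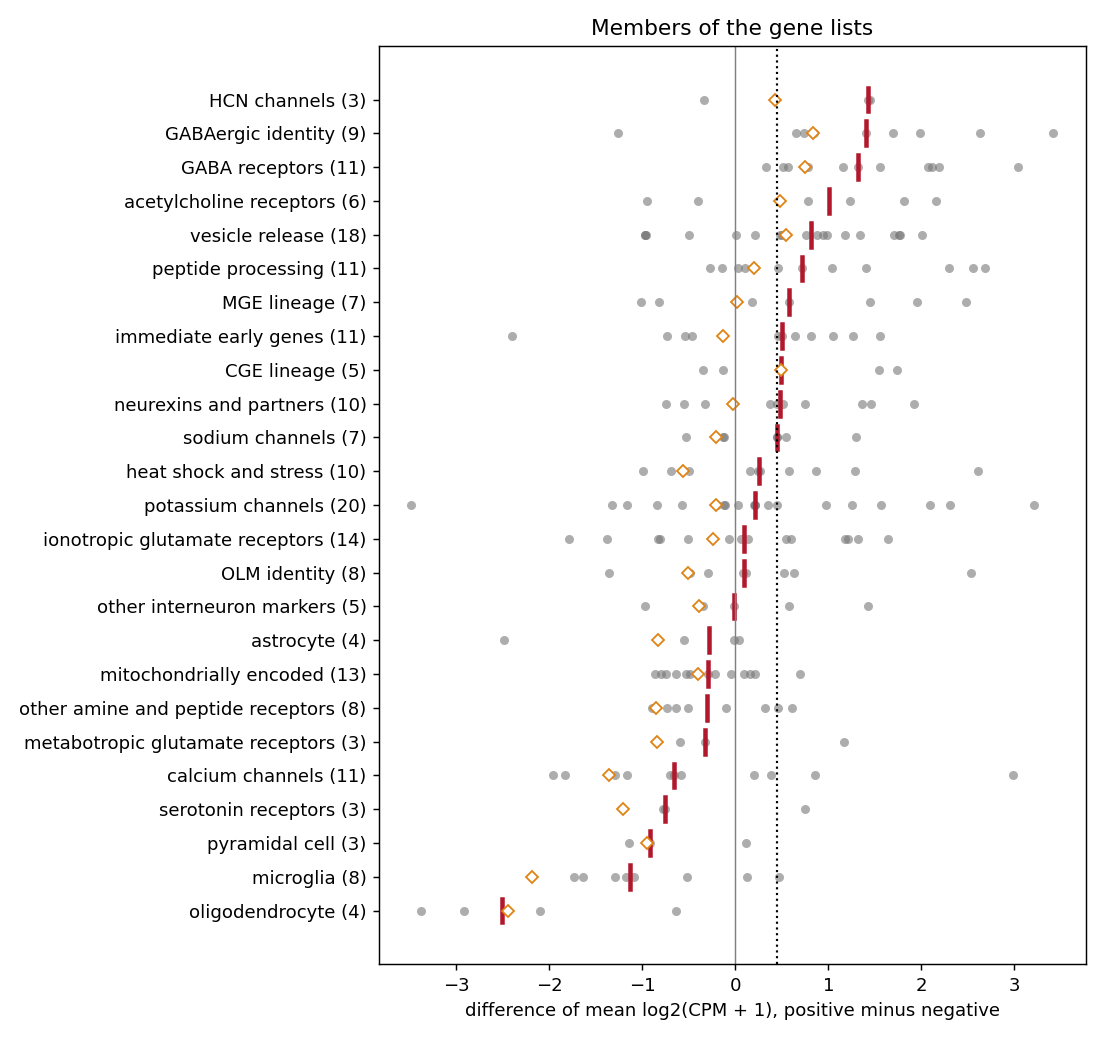
Difference of mean log2(CPM + 1), positive minus negative cells, of each member (grey points) of the lists with at least 3 genes compared, whose number stands in brackets. Red bars are list medians, orange diamonds the medians in cells with at least 5000 genes read, and the dotted line the median over all genes, 0.45; the oligodendrocyte list has the lowest median, -2.51, and the 11 GABA receptor genes all lie above 0.

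Most markers of oligodendrocytes and microglia stood lower in Htr3b-positive cells by their means. Of 4 oligodendrocyte genes compared all lay below 0, with a median of -2.51 (-2.45 in gene-rich cells), and 3, among them Mbp and Mobp, were called lower. Over all genes 65.5% lay above 0 and 1.66% were called lower. Of 8 microglial genes 6 lay below 0, with a median of -1.13, or -2.19 in gene-rich cells, where all 8 lay below 0 and C1qb, C1qc, P2ry12 and Ctss were called lower. Of 4 astrocyte genes compared, with a median of -0.29, the transporter Slc1a2 was called lower (-2.48), a call lost without cell 4 and in gene-rich cells (-1.85). The other 3, S100b, Aldoc and Glul, differed by -0.56, -0.02 and 0.04, the last with a sign that turned with 10 added to CPM. Slc1a3, 1 of the astrocyte genes read in too few cells for comparison, was found in no positive cell and 6 of 13 negative cells. Positive cells did hold reads of other astrocyte genes. The summed astrocyte list had medians of 67.0 CPM in positive and 223 CPM in negative cells, and highest values of 807 and 1495 CPM. It reached 100 CPM in 3 of 10 and 8 of 13 cells. Y-linked Eif2s3y was called lower as well (-2.77), with reads in 2 of 10 and 8 of 13 cells.

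In the 23 Sst-line cells, which had no Htr3b read, the mean log2(CPM + 1) lay nearer to the negative side for 343 of the 490 genes called higher (70.0%) and for 57 of the 159 called lower (35.8%), beside 53.9% of all genes compared. It lay between the sides for 410 and 135 of these genes. They were picked for a difference of at least 2 between the sides, which itself favours a mean between them. These 2 counts therefore do not show the Sst-line cells to be intermediate. Dlx5 had a mean of 2.77 ± 2.60 (SD, n = 23) there, between 4.88 and 1.46, and Gna12 one of 2.93 ± 3.25, between 6.59 and 1.37. For Tenm1 and Kcnd2 the means were 1.34 and 1.94, nearer to the Htr3b-positive side. Crhbp, at 9.96 ± 1.17, lay close to the positive mean of 10.06.

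The positive cells also varied less among themselves. The SD was smaller on the positive side for 70.5% of the genes compared, with median SDs of 2.39 and 2.78. With cells 4, 6 and 20 left out this share was 55.9%, and the negative median SD was 2.48.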

How the data were processed

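The main input was the authors' deposited table of raw counts, which gives whole-number reads for 22800 gene symbols in each cell; a second one lists 22880 Ensembl identifiers. Per the submitters' processing notes, reads passed through Trimmomatic, STAR and featureCounts with build GRCm38. Strandedness was not given in the sources used here, nor were tool versions or the annotation, and reads shared by overlapping genes may be counted for either. The authors' deposited normalized signal lay within 0.1% of the count over 1 factor per cell for 100% of values and served as an alternative. No molecular identifiers are named. The intervals given for shares of cells take cells as independent and cover no spread between animals. No pair among 253 of Htr3a-line libraries was identical (correlations 0.312 to 0.81).

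The sides, the gene lists (29 lists, 337 genes) and the alternatives were chosen with earlier results of these data known, and 2 of the alternatives, on Gad1 under 200 CPM and on Y-linked genes, after seeing the data. Counts were scaled to CPM, and the call rule described in the report was applied to genes read in at least 8 cells. The genes named were all measured members of the lineage, GABAergic, OLM, interneuron marker and serotonin receptor lists, up to 3 members of each other list with the largest differences, and the 12 genes highest and 12 lowest by the call rule whose difference stayed at 1 or more in size with each cell left out, names of predicted genes and RIKEN clones aside. Some of these genes are not reported here. Cell numbers are names in accession order. Positions and shared 31-base words came from GENCODE gene models of GRCm38. The calculation was tested on simulated data. Python 3.11.15, pandas 2.3.3, R 4.3.3, edgeR 4.0.16 (TMMwsp scaling) and DESeq2 1.42.0 (poscounts size factors) were used, the last 2 only for scaling. Alternatives changed the Htr3b limit, the number added, the scaling, the read depth, the filter, the average, the table and the cells.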

Additional observations from a re-analysis of the deposited data

How the results depend on the processing

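The counts of genes called depended on which cells and which scale were used. Against 490 higher and 159 lower, adding 10 to CPM gave 44 and 6, DESeq2 scaling 162 and 29, and the authors' normalized values 1013 and 498. Cells with at least 5000 genes read gave 242 and 341, and cells under 1 CPM of Y-linked genes (8 against 6) 1547 higher. Leaving out cells over 1000 CPM of microglial genes gave 1241 higher. The number lower was 282 with the limit at 50 CPM of Htr3b, 408 by medians, 250 without cells under 10 CPM of Gad1 and 279 without those under 200. The cause of these changes was not tested, and the subsets also hold fewer cells. The other alternatives stayed within 1.5 times both counts. Leaving out 1 cell gave 389 to 610 higher and 136 to 231 lower. The median difference over all genes, 0.45, was 0.20 with 10 added, 0.26 with DESeq2 scaling, 0.82 in the deposited table, 0.17 without cells under 10 CPM of Gad1, 0.83 without cells rich in microglial genes, 0.99 in cells poor in Y-linked reads and 0.28 to 0.54 with 1 cell left out. None of the named genes that were called changed sign under these alternatives, while several uncalled ones did. No paired analysis was possible because cell numbers only name the cells and the result comes from no test. With 10 and 13 cells, a count of 0 cells has a floor of 3 cells, or 30% and 23.1%, for the error of counting independent cells only.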
